A study of Homo sapiens with 25 samples.

Results

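The genes of Polycomb repressive complex 2 (PRC2) were described at 8 loci, EZH1, EZH2, EED, SUZ12, JARID2, AEBP2, PHF19 and MTF2, out of 19974 protein-coding genes. They were chosen by their place in the complex and by the peaks that earlier results of the same lists had shown at them, by mark and group. For each gene, the peaks overlapping its RefSeq span in hg38 plus 20 kb on each side were taken from 18 peak lists. All values below are therefore descriptions, and no test was made on them. The windows were between 82.9 and 316 kb long, with a median of 102 kb against 64.2 kb for all protein-coding genes.

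PRC2 places methyl groups on lysine 27 of histone H3, a mark of silenced genes that is incompatible with acetylation of the same residue. EZH1 and EZH2 are its alternative catalytic subunits, EED and SUZ12 form its core, and accessory subunits guide the complex to chromatin. JARID2 and AEBP2 belong to one form of the complex, and the Polycomb-like proteins PHF19 and MTF2 to another. In colon epithelium the complex is known for keeping developmental genes silent, and EZH2 is often abundant in tumours.

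The lists came from HCT116, an established line of colorectal carcinoma cells, by chromatin immunoprecipitation with sequencing. FOXD2 cells had been transduced with a pSin lentivirus carrying the full coding sequence of the forkhead factor FOXD2, and control cells with the empty pSin vector. Both were grown under puromycin as stable lines, and the labels name no clones. H3K4me1, a mark of enhancers, H3K27ac, which marks enhancers and promoters in use, and the H3K4 methyltransferase MLL4 each had 2 FOXD2 and 2 control lists. H3K4me3, a mark of active promoters, had 1 list per group. Tagged FOXD2 had 2 lists for a 6xHis tag and 2 for a FLAG tag, from cells given the plasmid pcDNA3.1-FOXD2-3xflag-6xhis, and no tag library came from cells lacking the tags. The labels do not say whether replicates were separate cultures, so their spread may be technical.

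Most of the subunit genes start in CpG-rich promoters, and the data placed H3K4me3 at all their listed starts in both groups. The 250 bases upstream of 3 start sites are shown, because JARID2 held the longest differences in enhancer marks and MTF2 was the gene with the most tag lists at its start. They are RefSeq sequence of GRCh38.p14, written 5′ to 3′ on the plus strand with each CpG in capitals. The first JARID2 stretch is chr6:15245819-15246068, the second lies before an internal start at chr6:15248605-15248854, and the MTF2 stretch is chr1:93079033-93079282.
JARID2, first start: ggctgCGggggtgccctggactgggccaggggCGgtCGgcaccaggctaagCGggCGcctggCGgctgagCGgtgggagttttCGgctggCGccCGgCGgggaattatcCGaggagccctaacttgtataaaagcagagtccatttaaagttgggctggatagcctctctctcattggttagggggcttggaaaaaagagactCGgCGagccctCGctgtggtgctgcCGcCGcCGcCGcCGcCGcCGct
JARID2, internal start: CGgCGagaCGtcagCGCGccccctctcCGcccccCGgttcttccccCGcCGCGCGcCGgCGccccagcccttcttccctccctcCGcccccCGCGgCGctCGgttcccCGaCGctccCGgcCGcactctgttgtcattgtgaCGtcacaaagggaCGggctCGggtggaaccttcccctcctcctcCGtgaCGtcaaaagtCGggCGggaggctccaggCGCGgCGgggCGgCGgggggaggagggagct
MTF2: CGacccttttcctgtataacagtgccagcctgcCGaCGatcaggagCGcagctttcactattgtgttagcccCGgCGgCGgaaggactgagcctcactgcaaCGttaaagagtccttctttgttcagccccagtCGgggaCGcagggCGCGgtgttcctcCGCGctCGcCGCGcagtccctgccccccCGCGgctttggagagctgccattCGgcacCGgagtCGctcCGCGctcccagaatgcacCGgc
These stretches held 22, 34 and 25 CpG. Over the 11 listed starts of the 8 genes, the observed over expected CpG ratio lay between 0.647 and 1.06, against a median of 0.711 over 22132 listed starts. The only EED start, at 0.677, and the downstream PHF19 start, at 0.647, lay below that median. The forkhead motif GTAAACA occurred on either strand in none of the 11 stretches and in 2.45% of all stretches of that length. The E2F motif TTTNNCGC occurred in those of EZH1, SUZ12 and AEBP2 and, with 2 matches, at the upstream PHF19 start, and in 7.22% of all stretches. A match says only that the letters are there, and the absence of one says nothing about the factor elsewhere in the window.

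The 18 lists held between 4676 and 141008 peaks, and read depth is not known. Peaks of H3K4me1 covered 164 and 177 Mb of chromosomes 1 to 22 and X in the FOXD2 lists and 146 and 121 Mb in the control lists. Those of H3K27ac covered 111 and 171 Mb in the FOXD2 lists and 132 and 89.3 Mb in the control lists. The MLL4 list of FOXD2 replicate 2, with 4676 peaks, stood apart from the other 3, which held between 13571 and 22493. As a check of the labelled tissue, 6 of 10 markers of colon epithelium had H3K4me3 in both lists, EPCAM, CDH1 and CDX2 among them, and KRT20, CDX1, VIL1 and LGALS4 did not. The mark was also found at 2 of 6 blood markers, at 4 of 6 for fibroblasts and endothelium, and at 2 of 4 for neural cells. Markers were read with 2 kb flanks, and without flanks 66.5% of all protein-coding gene spans had the mark in both lists. These counts thus do not set colon epithelium apart.

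H3K4me1 separated the 8 genes. JARID2, AEBP2, EZH2 and MTF2 were covered over a greater length in both FOXD2 lists than in both control lists, by between 2.07-fold and 3.49-fold, while EZH1, EED and SUZ12 overlapped between the groups and PHF19 was lower. With 2 lists against 2 the smallest exact permutation p is 0.333, so a gene is called higher or lower here only in the sense that its groups do not overlap. By that measure 4 of the 8 were higher, beside 42.7% of the 17987 genes with an H3K4me1 peak, and 1 was lower, beside 11.2%. The share of members called higher was thus near that of all genes. The median log2 ratio was 0.57 over the 8 genes and 0.18 over all genes. Scaling each list to its own total moved the median of all genes by -0.34, after which the same 4 genes were higher (26.2% of all genes) and EZH1, EED and PHF19 were lower (43.6%). Without control replicate 1, 7 genes were higher, beside 73.9% of all genes, and without control replicate 2, 3 were lower, beside 41.0%. In such lists, a mark in more cells and more of the mark per cell cannot be told apart.

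**Figure D1:**
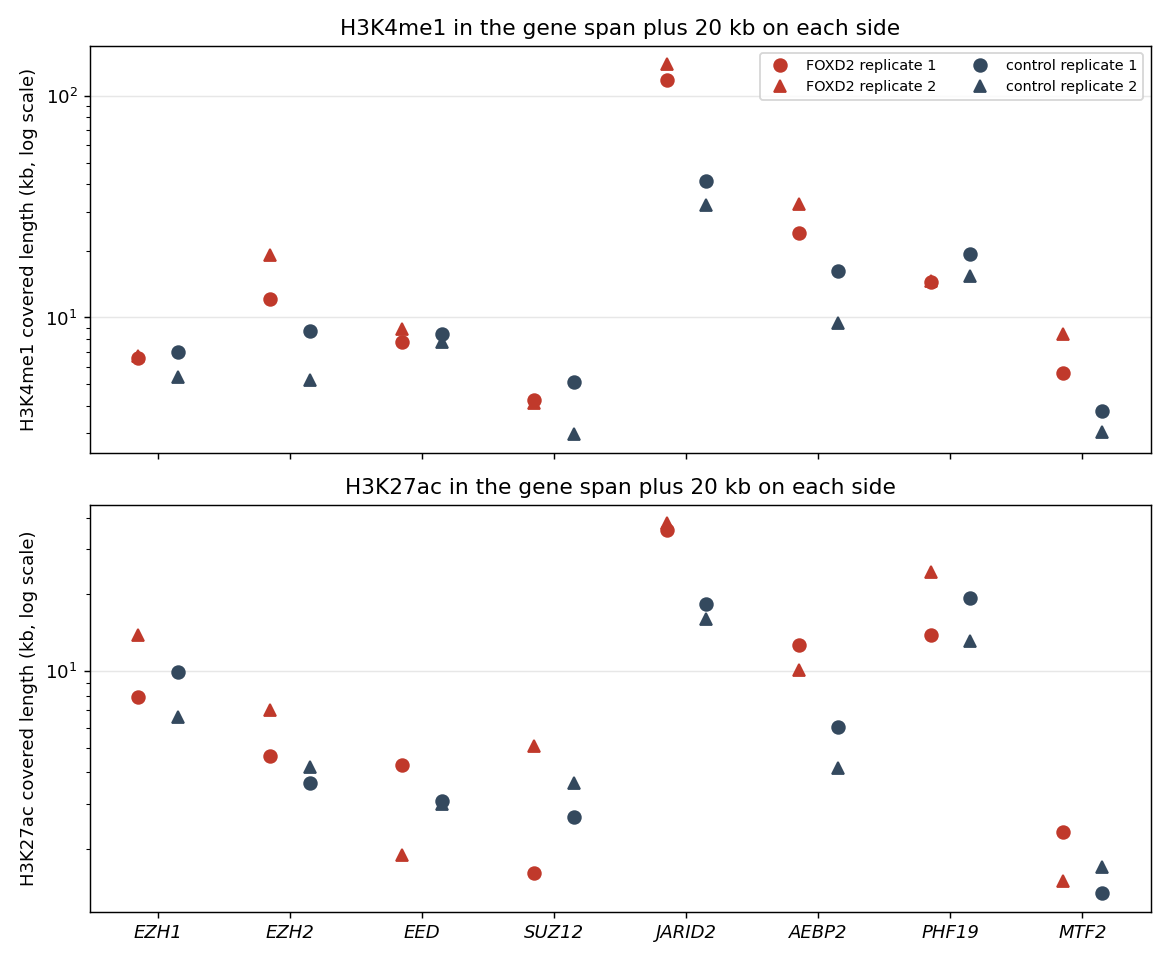
Covered length of H3K4me1 (top) and H3K27ac (bottom) in the window of each gene, in kb on a log axis, with 1 point per list and FOXD2 lists left of control lists. JARID2 stands highest for H3K4me1 in all lists and for H3K27ac in the FOXD2 lists, and its FOXD2 points, 119 and 139 kb of H3K4me1, lie above its control points at 41.5 and 32.2 kb.

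Of the catalytic pair, EZH2 differed between the groups and EZH1 did not. EZH2, the methyltransferase that predominates in dividing cells, carried 12.1 and 19.1 kb of H3K4me1 in the FOXD2 lists, against 8.72 and 5.24 kb in the control lists. The FOXD2 lists were both above the control lists, with a ratio of means of 2.23, and they also held more peaks, at 17 and 17 against 10 and 5. EZH1, its paralog in resting cells, carried 6.59 and 6.71 kb in the FOXD2 lists and 7.02 and 5.41 kb in the control lists. Most of the EZH1 signal lay outside the gene, since its own span held 1.70 and 2.25 kb in the FOXD2 lists and 1.75 and 0.947 kb in the control lists. The longest EZH1 peaks of all 4 lists lay over the neighbouring chemokine receptor gene CCR10, whose whole span was covered in each list.

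The core subunits showed overlapping groups. EED, which binds methylated lysine 27 and stimulates the enzyme, carried 7.79 and 8.83 kb of H3K4me1 in the FOXD2 lists and 8.40 and 7.74 kb in the control lists. SUZ12, the scaffold on which the other subunits assemble, carried 4.26 and 4.13 kb in the FOXD2 lists and 5.11 and 2.97 kb in the control lists. Both ratios of means were near 1, at 1.03 for EED and 1.04 for SUZ12, and neither window held an H3K4me1 region present in both lists of a group and absent from the other group. Within the EED span, without the flanks, the FOXD2 lists held 2.74 and 3.11 kb and the control lists 2.66 and 2.03 kb, so that EED was higher there, and with 50 kb flanks as well. SUZ12 was higher among peaks with a −log10 q of at least 5, and held 1 region there of both FOXD2 lists and neither control list.

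JARID2 and AEBP2, the accessory subunits of one form of the complex, both had longer H3K4me1 in FOXD2 cells. JARID2, a DNA-binding subunit that helps recruit PRC2, carried 119 and 139 kb in the FOXD2 lists, against 41.5 and 32.2 kb in the control lists. That was 37.5% and 43.9% of its window in the FOXD2 lists, against 13.1% and 10.2% in the control lists. Its mean was 129 ± 14.3 kb over the FOXD2 lists, against 36.9 ± 6.58 kb over the control lists (SD, n = 2 each), a ratio of 3.49. On the log2 scale this was 1.80, above 97.7% of genes covered in both groups, and scaled to the list totals the ratio was 2.74. AEBP2, a zinc finger protein that stabilizes the complex, carried 24.1 and 32.6 kb in the FOXD2 lists, against 16.2 and 9.41 kb in the control lists, with a ratio of 2.21. These lengths were 15.2% and 20.6% of the AEBP2 window in the FOXD2 lists and 10.2% and 5.95% in the control lists, and the groups did not overlap.

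The Polycomb-like genes PHF19 and MTF2, whose proteins bind CpG-rich DNA and methylated lysine 36, differed in opposite directions. MTF2 carried 5.62 and 8.45 kb in the FOXD2 lists and 3.77 and 3.03 kb in the control lists, with 10 and 9 peaks against 5 and 3. Its groups did not overlap and the ratio of means was 2.07, but they overlapped once lists were brought to equal length or held to a −log10 q of at least 5. PHF19 carried 14.5 and 14.6 kb in the FOXD2 lists, against 19.4 and 15.4 kb in the control lists, with a ratio of 0.83. The lower FOXD2 values were within 1 kb of the nearer control value, and without control replicate 1 the log2 ratio was -0.09 in place of -0.27. By number of peaks the groups overlapped, at 11 and 11 in the FOXD2 lists and 11 and 12 in the control lists, and so did their covered lengths with 50 kb flanks.

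**Figure D2:**
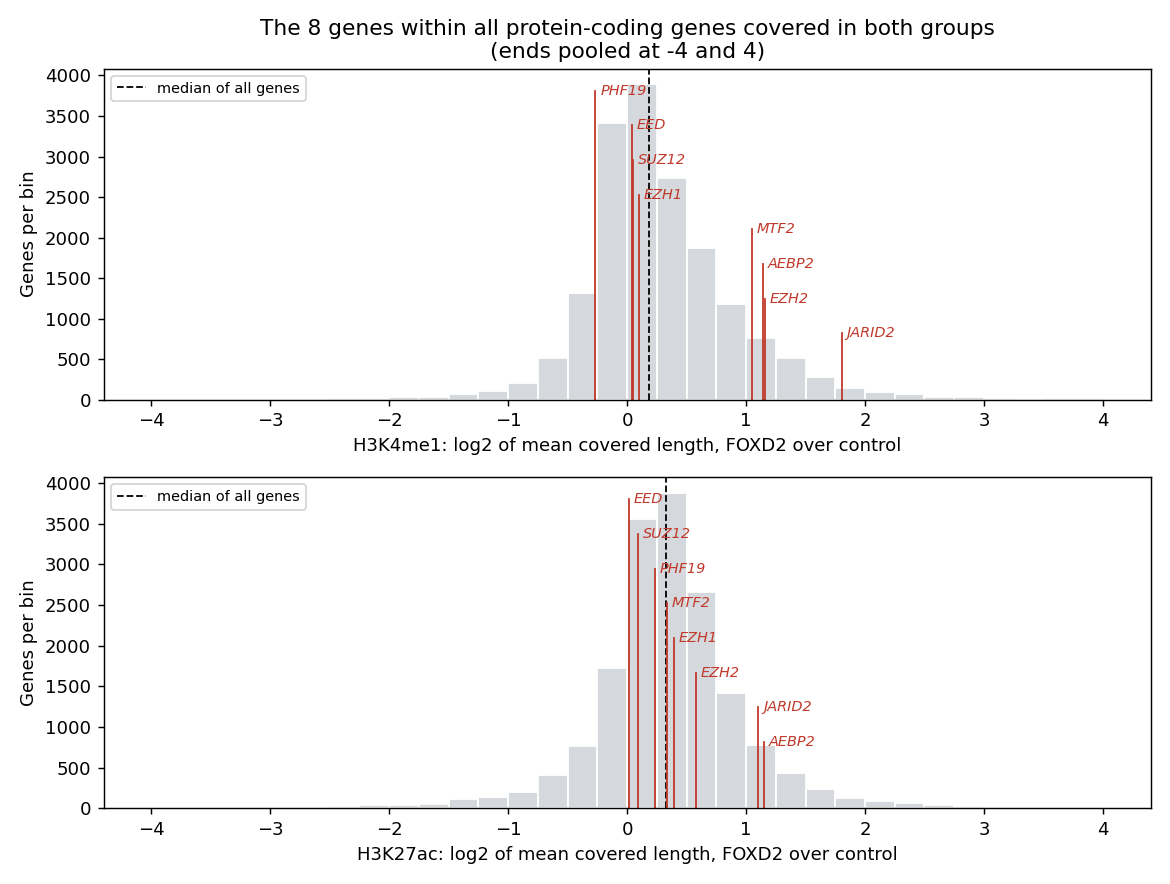
Distribution over all protein-coding genes covered in both groups of the log2 ratio of mean covered length, FOXD2 over control, for H3K4me1 (top) and H3K27ac (bottom), with a line for each of the 8 genes and a dashed line at the median. JARID2 stands at 1.80 for H3K4me1 and the median of all genes at 0.18.

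Along JARID2 the direction of the difference was the same throughout, but its size was not. The window was divided into 16 stretches of at most 20 kb, counted from the first start site, and H3K4me1 was longer in both FOXD2 lists in 16 of them, beside 41.7% of all 20 kb tiles with a peak. Between 60 and 80 kb into the gene the FOXD2 lists were covered over 16.0 and 19.1 kb and the control lists over 4.52 and 3.89 kb. Between 120 and 140 kb they were covered over 3.62 and 8.09 kb in the FOXD2 lists and had no peak in the control lists. Toward the 3' end the lengths were small. Between 240 and 260 kb they were 1.46 and 1.28 kb in the FOXD2 lists and 1.24 and 0 kb in the control lists. Between 260 and 280 kb the FOXD2 lists held 0.025 and 0.399 kb and the control lists had no peak. The signal was most continuous in the 5' part of the gene. The longest single H3K4me1 peak there measured 14122 and 18195 bp in the FOXD2 lists, against 4984 and 4395 bp in the control lists. The number of peaks was 72 and 67 in the FOXD2 lists and 35 and 32 in the control lists, so the ratio by number was smaller than by length, with a log2 of 1.05.

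**Figure D3:**
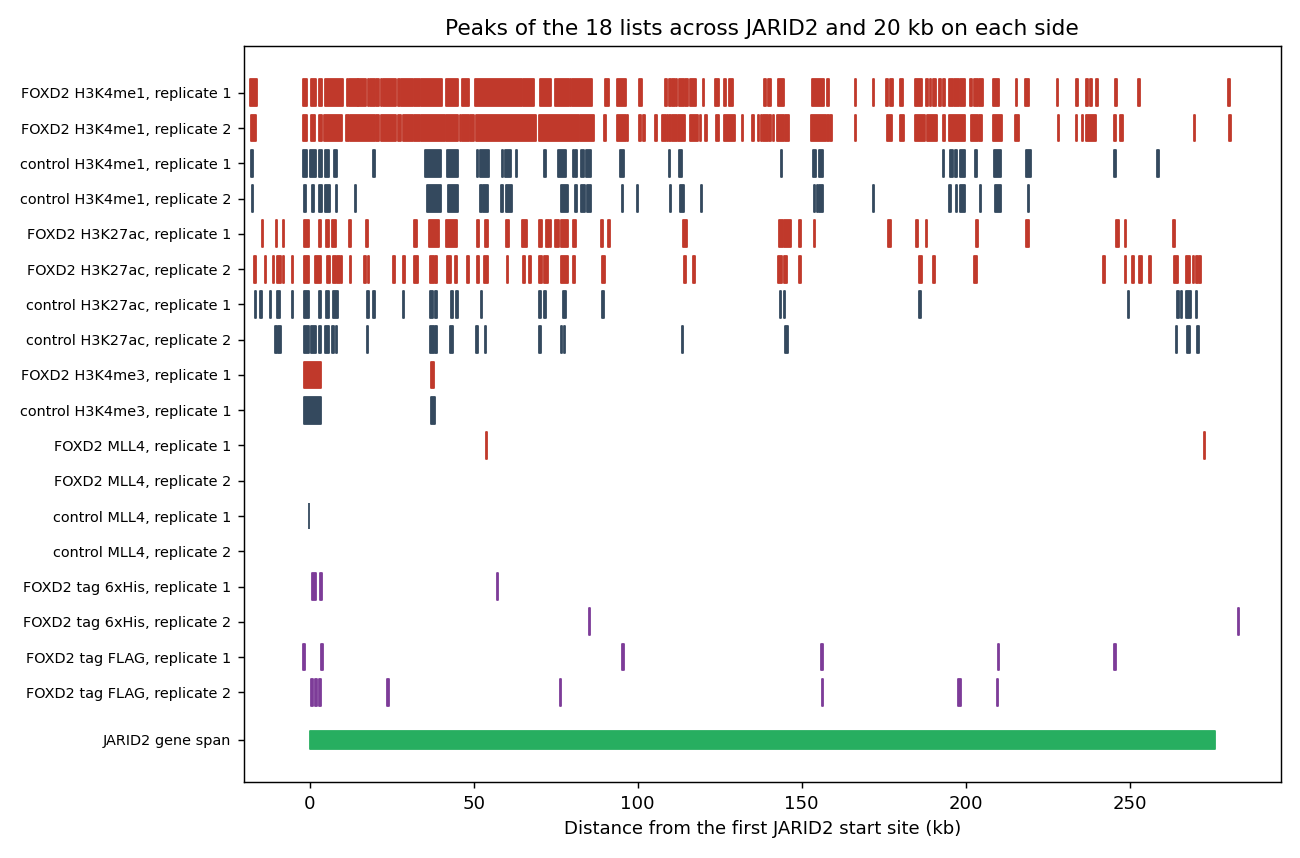
Peaks of the 18 lists across JARID2 and 20 kb on each side, with distance from the first start site in kb on the horizontal axis and 1 row per list, FOXD2 lists in red, control lists in dark blue and tag lists in purple. The FOXD2 H3K4me1 lists hold nearly continuous blocks, the longest of 14122 and 18195 bp, where the control lists hold separate peaks.

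Merging the 4 H3K4me1 lists gave 72 regions at JARID2. Of these, 26 were found in both FOXD2 lists and neither control list, here called FOXD2-only, none in the control lists only, and 16 in all 4 lists. The 16 shared regions alone accounted for 74.7 and 81.7 kb in the FOXD2 lists and 37.4 and 30.8 kb in the control lists. The FOXD2-only regions added 34.1 and 41.5 kb in the FOXD2 lists. The longer coverage thus came both from shared regions that were wider and from regions absent from the control lists. Of the FOXD2-only regions at JARID2, the highest ranked by the authors' q lay at chr6:15267678-15272302, 23.9 kb into the gene, with deposited fold enrichments of 14.0 and 9.45. The next, chr6:15361922-15364567, lay 117 kb into the gene with folds of 7.32 and 10.1. Each also held H3K27ac in FOXD2 replicate 2 and in no control list, and the nearer one held a FLAG peak.

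Over the 8 windows together, 40 of 167 H3K4me1 regions were FOXD2-only, or 24.0%, beside 14.2% of 150847 regions in all chromosomes. JARID2 gave 26 of them, AEBP2 8, EZH2 3 and MTF2 3. Left out after these values were seen, JARID2 took the share with it, since the other 7 genes had 14 of 95 regions, or 14.7%. Control-only regions numbered 2, or 1.2% beside 4.39%, 1 each at PHF19 and MTF2, and 52 regions, or 31.1% beside 41.1%, lay in all 4 lists. Requiring 1 list fewer raised the FOXD2-only count, to 74 without FOXD2 replicate 1 (30.7% of all regions) and 68 without FOXD2 replicate 2 (23.6%), as it raised the share of all regions. The control-only count was 4 without FOXD2 replicate 1 (6.44% of all regions), 4 without FOXD2 replicate 2 (6.92%) and 7 without control replicate 2 (11.4%). At AEBP2, the strongest FOXD2-only region was chr12:19502613-19507037 within the gene, with folds of 7.28 and 8.98 and H3K27ac in FOXD2 replicate 1. At EZH2, the FOXD2-only region chr7:148850753-148851900, 33.0 kb into the gene, was the one with H3K27ac in both FOXD2 lists and in neither control list. The control-only region of PHF19, chr9:120896987-120898060, had folds of 5.60 and 5.65, and held H3K27ac in FOXD2 replicate 2 and in no control list. That of MTF2, chr1:93076708-93077438, had folds of 5.10 and 4.40, no H3K27ac, and peaks of 6xHis replicate 1 and FLAG replicate 1.

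**Figure D4:**
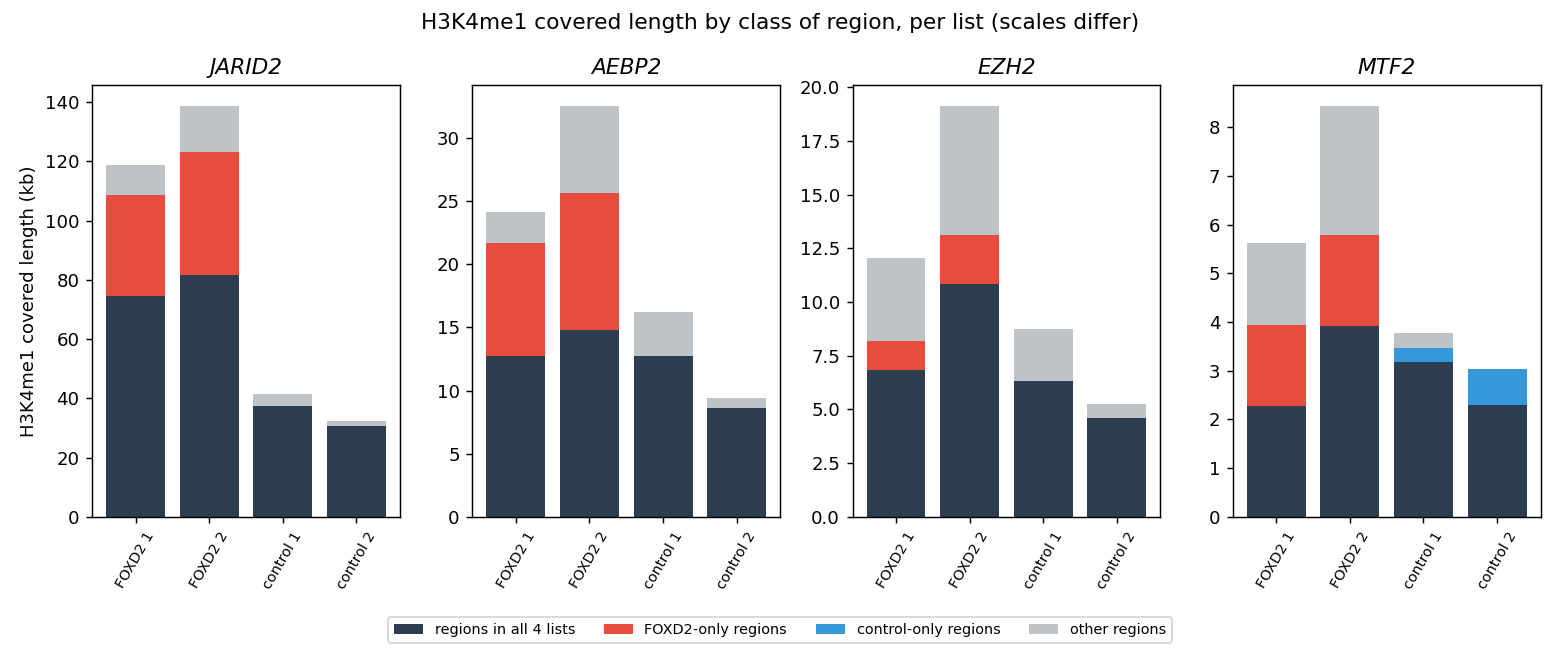
H3K4me1 covered length in kb per list (FOXD2 lists left of control lists) at the 4 genes with FOXD2-only regions, stacked by class of merged region, with a separate vertical scale for each gene. At JARID2, regions found in all 4 lists hold 74.7 and 81.7 kb in the FOXD2 lists and 37.4 and 30.8 kb in the control lists.

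The other marks were counted at the FOXD2-only H3K4me1 regions of the 8 windows. The same shares over FOXD2-only regions of all chromosomes are not given here, so these counts cannot be read as particular to the 8 genes. H3K27ac lay in both FOXD2 lists at 5 of the 40, 4 of them at JARID2, and in any list at 13. None held MLL4 or H3K4me3, 8 held a tag peak of any list, and none held a region of all 4 tag lists. Of the 52 regions found in all 4 H3K4me1 lists, 31 held H3K27ac in both FOXD2 lists, 11 held MLL4, 25 held H3K4me3 and 24 held a tag peak. At JARID2 the FOXD2-only regions were narrower, with a median width of 1396 bp against 3322 bp for regions of all 4 lists, and the part of width in these counts was not tested.

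Of 11 protein-coding genes beside the subunits, 5 were higher in H3K4me1 over their own spans and 1 was lower, beside 39.7% and 12.4% of all gene spans without flanks, so the count was near that of all genes. DTNBP1, which lies beyond the 3' end of JARID2 and encodes dysbindin, carried 11.6 and 13.5 kb of H3K4me1 in its span in the FOXD2 lists, against 2.87 and 2.49 kb in the control lists. CUL1, a ubiquitin ligase scaffold beside EZH2, carried 18.4 and 18.4 kb in the FOXD2 lists, against 8.31 and 9.30 kb in the control lists. TMED5, beside MTF2, carried 3.64 and 4.76 kb in the FOXD2 lists, against 2.12 and 1.85 kb in the control lists. The groups of these 3 genes did not overlap, so the longer H3K4me1 was not confined to the subunit genes. HIKESHI, beside EED, and RAMP2, beside EZH1, were also higher, and CNTNAP1, beside EZH1, was lower, although EED and EZH1 themselves overlapped. These calls rested on short or nearly equal lengths. HIKESHI held 1.708 and 2.38 kb in the FOXD2 lists and 1.704 and 1.32 kb in the control lists. RAMP2 held 0.191 and 0.205 kb in the FOXD2 lists and 0.1 and 0 kb in the control lists. CNTNAP1 held 1.025 and 0.932 kb in the FOXD2 lists and 1.076 and 1.064 kb in the control lists. AEBP2 had no protein-coding neighbour within its window. At PHF19, its neighbours PSMD5 and TRAF1 both overlapped between the groups.

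H3K27ac was longer in FOXD2 cells at JARID2, AEBP2 and EZH2. These 3 of 8 genes stood beside 28.3% of the 17643 genes with a peak, and none was lower, beside 3.99%, so the count was near that of all genes. JARID2 carried 35.8 and 37.9 kb in the FOXD2 lists, against 18.3 and 16.0 kb in the control lists. Its groups did not overlap, with a ratio of means of 2.15 and 37 and 51 peaks against 29 and 22. AEBP2 carried 12.6 and 10.1 kb in the FOXD2 lists, against 6.06 and 4.16 kb in the control lists, with a ratio of 2.22. For both genes the direction was that of H3K4me1, and their log2 ratios of 1.10 and 1.15 lay above the median of all genes, 0.33. EZH2 carried 4.65 and 7.05 kb in the FOXD2 lists and 3.65 and 4.20 kb in the control lists, and its groups overlapped once the lists were scaled to their totals. That scaling moved the median of all genes by -0.36, leaving JARID2 and AEBP2 higher (16.4% of all genes) and making PHF19 lower (15.7%).

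The other 5 genes had overlapping H3K27ac. EED carried 4.27 and 1.90 kb in the FOXD2 lists and 3.10 and 3.01 kb in the control lists, and SUZ12 1.62 and 5.08 kb in the FOXD2 lists and 2.66 and 3.63 kb in the control lists. At both core subunits the FOXD2 replicates enclosed the control values, so the spread within FOXD2 cells exceeded the difference. EZH1 carried 7.92 and 13.8 kb in the FOXD2 lists and 9.93 and 6.62 kb in the control lists. PHF19 carried 13.9 and 24.4 kb in the FOXD2 lists and 19.4 and 13.1 kb in the control lists. MTF2 carried 2.33 and 1.505 kb in the FOXD2 lists and 1.34 and 1.70 kb in the control lists. The FOXD2 replicates differed from each other in list length, and the number of genes called higher was 6 when FOXD2 replicate 1 was left out, 5 when FOXD2 replicate 2 was, and 5 when control replicate 1 was. The shares of all genes beside them were 73.9%, 35.4% and 60.9%, and a gene was lower without either FOXD2 list, EED without replicate 1 and SUZ12 without replicate 2. JARID2 and AEBP2 were higher in each of these.

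Within the windows, 14 of 148 H3K27ac regions were FOXD2-only, or 9.46% beside 5.25% of all regions, and 9 of them lay at JARID2. The other 7 genes had 5 of 86, or 5.81%. A single control-only region, 0.676% beside 2.46%, lay in EZH1 at chr17:42720252-42720958, where both FLAG lists also had a peak. Along JARID2, 9 of 16 stretches were higher, beside 22.5% of all tiles, and none was lower, beside 6.48%. They lay between 20 and 120 kb, 140 and 160 kb, 180 and 220 kb and 240 and 260 kb from the first start. Around the start itself the groups overlapped, at 4.30 and 5.93 kb in the FOXD2 lists and 3.81 and 5.10 kb in the control lists for the first 20 kb. In the same 20 kb, H3K4me1 covered 14.96 and 16.15 kb in the FOXD2 lists and 5.38 and 3.57 kb in the control lists.

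All 8 genes carried H3K4me3 in both groups, beside 76.5% of protein-coding genes, and the lengths were close. With 1 list per group there is no replicate check. JARID2 carried 6.14 kb in the FOXD2 list and 6.39 kb in the control list, EZH2 2.85 and 2.86 kb, and SUZ12 3.84 and 3.82 kb, in that order of lists. No gene passed 1.5-fold in either direction, beside 1.63% of genes higher and 4.65% lower. The remaining values were 2.45 kb in the FOXD2 list and 2.98 kb in the control list for EZH1, 2.71 and 3.01 kb for EED, 1.77 and 1.96 kb for AEBP2, 6.20 and 7.09 kb for PHF19, and 1.65 and 1.80 kb for MTF2. The longest difference in H3K4me1 and the near equality in H3K4me3 were thus seen at the same gene, JARID2.

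At the promoters themselves, H3K4me3 overlapped the 250 bases upstream of all 11 listed starts in both lists, beside 58.0% of all listed starts. A peak of 5177 bp in the FOXD2 list and 5292 bp in the control list spanned both JARID2 starts, with deposited folds of 77.3 and 74.3. The EZH2 promoter peak had folds of 98.7 in the FOXD2 list and 117 in the control list, and that of AEBP2 123 and 107. In the same order of lists, the folds were 82.4 and 111 at EZH1 and 53.9 and 79.9 at the upstream PHF19 start. H3K27ac lay in the stretch upstream of the first JARID2 start in all 4 lists and ended before the start, in peaks of 1529 and 1580 bp in the FOXD2 lists and 1482 and 1528 bp in the control lists. H3K4me1 overlapped neither JARID2 stretch printed above in any list. It lay over the upstream stretch of EZH1 and of the downstream PHF19 start in all 4 lists, and in PHF19 the peaks measured 892 and 1086 bp in the FOXD2 lists and 1704 and 1617 bp in the control lists.

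MLL4 was sparse at all 8 genes. SUZ12 and AEBP2 had no MLL4 peak in any list, and EED had a single one, of 0.400 kb, in control replicate 1. EZH2 carried 0.350 and 0 kb in the FOXD2 lists and 0.640 and 0.467 kb in the control lists, so that it was lower, the 1 of 8 genes to be so, beside 17.3% of the 14238 genes with a peak. None was higher, beside 2.21%. JARID2 carried 0.603 and 0 kb in the FOXD2 lists and 0.249 and 0 kb in the control lists, and MTF2 0.424 and 0 kb in the FOXD2 lists and 0.276 and 0 kb in the control lists. Every gene was at 0 in the short list of FOXD2 replicate 2. Without that list JARID2, PHF19 and MTF2 were higher, beside 52.3% of all genes. Without FOXD2 replicate 1, EZH1, EZH2 and PHF19 were lower, beside 62.0%. Leaving out either control list left 2 genes lower, beside 28.3% without control replicate 1 and 38.6% without control replicate 2. Scaled to list totals the counts were 0 higher, beside 5.69%, and 1 lower, beside 19.7%. PHF19 had the most MLL4, at 1.64 and 0 kb in the FOXD2 lists and 0.949 and 0.953 kb in the control lists, and EZH1 carried 1.19 and 0 kb in the FOXD2 lists and 0.131 and 1.39 kb in the control lists. None of the 18 merged MLL4 regions was FOXD2-only (1.12% of all regions), control-only (7.14%) or present in all 4 lists (6.09%).

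Taken over all 4 tag lists, peaks were most numerous at EZH2, EED, SUZ12 and MTF2 and fewest at PHF19. The order differed between lists, and at the first 4 genes 6xHis replicate 1 held the most peaks. In the FLAG lists JARID2, with 6 and 8 peaks, and AEBP2, with 7 and 6, held more than MTF2, with 5 and 3. EZH2 held 13 and 4 peaks in the 6xHis lists and 7 and 8 in the FLAG lists, EED 11 and 4 in the 6xHis and 7 and 5 in the FLAG lists, and SUZ12 11 and 4 in the 6xHis and 6 and 6 in the FLAG lists. MTF2 held 12 and 4 in the 6xHis lists and 5 and 3 in the FLAG lists. Averaged over the 4 lists they covered 3.99% of the EZH2 window, 3.98% at EED, 3.22% at SUZ12 and 3.00% at MTF2, against a median of 0.52% over all genes. JARID2, with 3 and 2 peaks in the 6xHis lists and 6 and 8 in the FLAG lists, had 0.773% of its window covered, near that median. AEBP2, with 7 and 2 peaks in the 6xHis lists and 7 and 6 in the FLAG lists, had 1.76% covered, and EZH1, with 2 and 1 in the 6xHis lists and 1 and 4 in the FLAG lists, 1.43%. PHF19 held 2 and 0 peaks in the 6xHis lists and 0 and 1 in the FLAG lists, or 0.392%. Of the 4 genes with the most tag peaks over all 4 lists, EZH2 and MTF2 were higher in H3K4me1 and EED and SUZ12 overlapped. JARID2, with the largest H3K4me1 ratio, was not among them. That order rested in part on 6xHis replicate 1, the longest tag list, and JARID2 held more peaks than MTF2 in both FLAG lists. A shared background of the tag libraries was not tested.

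**Figure D5:**
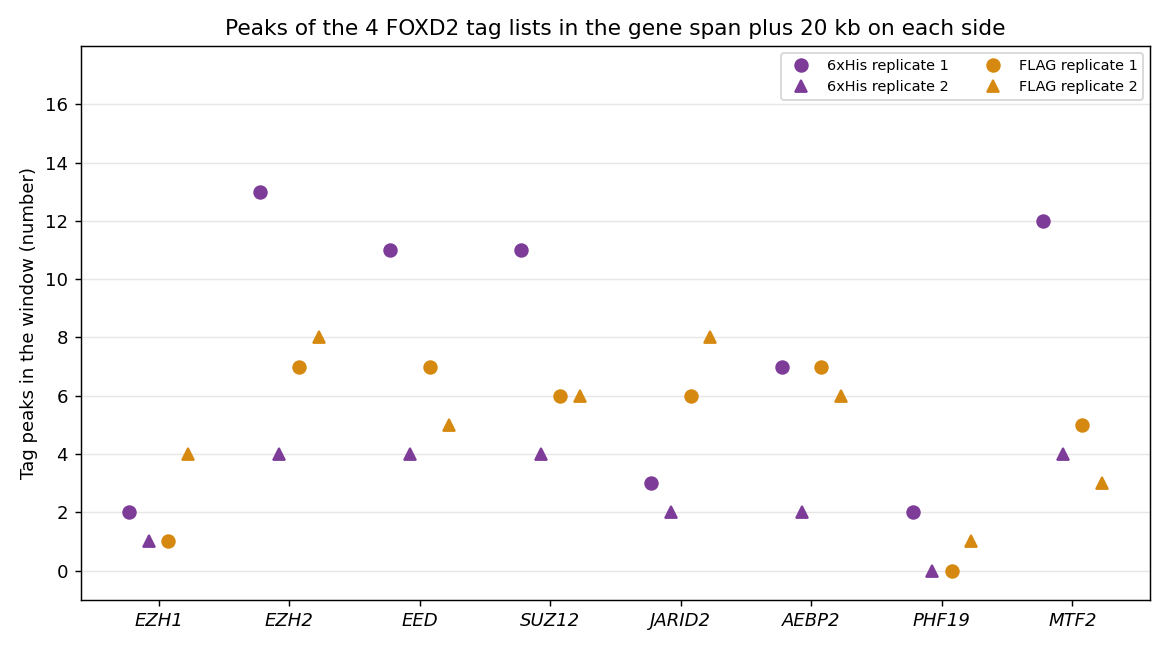
Number of peaks of each of the 4 FOXD2 tag lists in the window of each gene, with 6xHis lists in purple and FLAG lists in orange. EZH2 holds 13, 4, 7 and 8 peaks and PHF19 2, 0, 0 and 1, and 6xHis replicate 1 is the highest of the 4 lists at EZH2, EED, SUZ12 and MTF2.

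A site held by all 4 tag lists occurred at 1 of the 8 genes, SUZ12, beside 20.6% of protein-coding genes. It lay 55.3 kb into the gene at chr17:31991600-31993038, with deposited folds between 2.87 and 5.49, and held none of the 4 chromatin features. Regions of at least 3 tag lists numbered 10 and occurred at 6 genes, beside 36.2%, the exceptions being EZH1 and PHF19. Without 6xHis replicate 2, a site of the other 3 lists occurred at 5 genes, beside 27.6%, and without FLAG replicate 2 at 3, beside 25.6%. Of 2 regions of 3 lists at EED, chr11:86244927-86246206 lay just downstream of its start and held H3K4me3, H3K27ac and H3K4me1 in every list, and chr11:86268553-86269389, within the gene, held no mark. The 3 histone marks also lay, in every list, at the region of JARID2, chr6:15248822-15250005, which begins beside the internal start printed above, and at that of MTF2, chr1:93078460-93079460, which covers the MTF2 stretch. EZH2 had 3 such regions, all within the gene, of which chr7:148856321-148857167 held H3K4me1 in all 4 lists and the others no mark. Over the 250 bases upstream of a start, MTF2 had peaks of 6xHis replicate 1 and FLAG replicate 2 (7.32% of all starts had at least 2 lists), with folds of 2.93 and 5.19. The internal JARID2 start and the EZH1 start had 1 list each, FLAG replicate 2 (17.6% of all starts had at least 1).

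Other Polycomb genes were read against the same shares of all genes, for H3K4me1 42.7% higher and 11.2% lower. Of 7 further PRC2 subunits and inhibitors, 6 had a peak, 2 were higher and none lower, and scaled to list totals 1 was higher and 3 lower (26.2% and 43.6% of all genes). LCOR, an accessory subunit gene, carried 24.5 and 31.4 kb in the FOXD2 lists, against 17.6 and 15.6 kb in the control lists, and LCORL 2.22 and 4.68 kb in the FOXD2 lists, against 2.00 and 1.24 kb in the control lists. Of 24 genes of Polycomb repressive complex 1, which ubiquitinates histone H2A, 8 were higher and 5 lower, with a median log2 ratio of 0.17, close to that of all genes, and scaled 6 were higher and 11 lower. RNF2, its ubiquitin ligase, carried 2.53 and 5.46 kb in the FOXD2 lists, against 1.75 and 1.48 kb in the control lists. Other genes of that complex with groups apart were RYBP, at 12.2 and 19.8 kb in the FOXD2 lists against 8.30 and 5.99 kb in the control lists, SCML2 and PHC3. LCORL and PHC3 overlapped between the groups once the lists were scaled to their totals.

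Of the 8 genes of the deubiquitinase complex PR-DUB, which removes that ubiquitin, 7 had a peak, 6 were higher (42.7% of all genes) and none lower (11.2%), with a median log2 ratio of 0.64. ASXL1, a subunit that activates the deubiquitinase, carried 10.79 and 10.95 kb in the FOXD2 lists, against 7.83 and 6.13 kb in the control lists. Scaled to list totals, 4 of these genes were higher (26.2% of all genes) and 2 lower (43.6%). Of the 2 demethylases of lysine 27, KDM6A was higher, at 33.3 and 45.6 kb in the FOXD2 lists against 16.1 and 14.3 kb in the control lists, and KDM6B was not. For H3K27ac, 2 of the further PRC2 genes, 6 of the complex 1 genes, 2 of the PR-DUB genes and none of the demethylases were higher, beside 28.3% of all genes, and none of these genes was lower, beside 3.99%. Scaled, 1 of the further PRC2 genes, 5 of the complex 1 genes, 2 of the PR-DUB genes and 1 demethylase were lower, beside 15.7%. For MLL4, 4 of the further PRC2 genes, 3 of the complex 1 genes, 1 PR-DUB gene and neither demethylase were lower, beside 17.3%, and 1 PR-DUB gene was higher, beside 2.21%. Scaled, no PR-DUB gene was higher and 1 complex 1 gene was, beside 5.69%. Lower when scaled were 4 of the further PRC2 genes, 5 of the complex 1 genes and 2 PR-DUB genes, beside 19.7%.

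The genes most like each subunit were found by Euclidean distance over the 18 shares of the window covered. JARID2 was nearest to AKIRIN2, at 7.32 percentage points, TMCC1, at 9.85, and MAP3K9, at 10.7. AKIRIN2 carried 23.5 and 29.9 kb of H3K4me1 in the FOXD2 lists, against 9.04 and 6.01 kb in the control lists. TMCC1 carried 93.3 and 113 kb in the FOXD2 lists, against 46.1 and 39.4 kb in the control lists. The H3K4me1 lists are among the 18 used for the distance, so the direction at these genes follows in part from how they were picked. EZH2 was nearest to ATXN7 (4.61), ELF2 (4.83) and STX6 (4.91), AEBP2 to DOCK9 (4.07), PKP2 (4.26) and MEGF9 (4.60), and MTF2 to ATP2C1 (2.77), NHLRC2 (3.04) and SCFD1 (3.29). None of the 8 subunit genes was among the 3 nearest of another, and JARID2 was the farthest from its nearest gene. The distance grows with the share covered, which was largest at JARID2.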

How the data were processed

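HCT116 cells with a FOXD2 or an empty vector were profiled for 3 histone marks and MLL4, and cells with tagged FOXD2 for its tags. The 18 libraries with deposited peaks were analysed, and of the 25 libraries the 7 inputs were left aside. Native chromatin cut with MNase was used for histone marks, and crosslinked, sonicated chromatin for MLL4 and the tags, per the labels' protocols. Tools named in the submitters' processing notes are MACS2 2.2.7.1, bedtools, Picard, cutadapt 3.4 and Bowtie2 2.3.4.1, with the build hg38. The authors deposited a separate list for each library, without pooling replicates. The sources used here give neither the background library of a list nor the read depth. In each deposited list, column 7 is fold enrichment as a ratio, columns 8 and 9 are p-value and q-value as −log10, and column 5 is a score, which was not used. The largest q was 0.01. Fold and −log10 q are the authors' own values. Regions were ranked by q inside each list, and folds of different lists are printed side by side without a common scale.

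Between 1 and 35 peaks per list lay outside chromosomes 1 to 22 and X and were dropped. For each gene, the covered length is the number of bases under peaks inside the window of the gene span plus 20 kb, from RefSeq spans of GRCh38.p14, the assembly that hg38 also names. A gene was called higher when both FOXD2 lists exceeded both control lists, and lower in the reverse case. Backgrounds are the shares of all protein-coding genes, regions or tiles meeting the same rule. Regions are peaks of 1 mark merged with a gap of 0 bp. A list held a region through at least 1 bp. H3K4me3, with 1 list per group, was read at 1.5-fold.

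The genes, the other Polycomb lists and the markers were chosen with earlier results of these data known. All 8 genes were named, with up to 4 genes of each other list by the largest H3K4me1 ratio among those whose groups did not overlap, the 2 top-ranked regions of each class per gene and the 3 most alike genes. The E2F and forkhead motifs were searched in promoter sequences. Alternatives were peak number, scaling to list totals, −log10 q of at least 5, equal list lengths, peaks lying at least 50% in the window, no flank, 50 kb flanks, a gap of 500 bp, a fold of 2, other tag-site rules, each library left out and a replicate block. Covered length, peak number, the 50% rule and the classes of merged regions were tested on simulated peak lists whose answers were known. In those lists the replicates of a group were identical, and the other steps were not tested in this way. Python 3.11.15, numpy 2.4.6, scipy 1.17.1 and matplotlib 3.10.9 were used.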

Additional observations from a re-analysis of the deposited data

How the results depend on the processing

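Peak lists without read depth limit every value here to where peaks were called, and a gene without a peak may lie below the threshold of its list. The log2 ratios of the 8 genes for H3K4me1 and H3K27ac were recomputed 176 times, and 141 values moved by less than 1 SD, 35 by more. For H3K4me1, JARID2 ranged from 1.05 to 2.00, AEBP2 from 0.74 to 1.59, EZH2 from 0.79 to 1.57, MTF2 from 0.63 to 1.41 and PHF19 from -0.61 to -0.06. For H3K27ac, JARID2 ranged from 0.77 to 1.34, AEBP2 from 0.90 to 1.74 and EZH2 from 0.15 to 1.21. The H3K27ac ranges of the other 5 genes crossed 0, the widest being SUZ12, from -0.96 to 0.98, and the H3K4me1 ranges of EZH1, EED and SUZ12 did too.

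Among the counts, 76 of 111 recomputed values stayed within 1.5 times, and for the others the cause was not tested. Against 1 gene lower in H3K4me1 (11.2% of all genes), 0 were lower by peak number (10.2%) and 3 scaled to list totals (43.6%). With 50 kb flanks 0 were lower (8.97%). Genes lower in H3K27ac numbered 1 when scaled (15.7% of all genes), in place of 0 (3.99%). Against 1 gene lower in MLL4 (17.3% of all genes), 2 were lower with 50 kb flanks (17.9%). None was lower by peak number (10.1%), at equal list length (19.6%) or without flanks (14.5%). Genes with a tag site numbered 6 with at least 3 lists (36.2% of all genes), 8 with at least 2 lists (52.9%) and 0 at a −log10 q of at least 5 (9.1%), in place of 1 (20.6%). FOXD2-only H3K4me1 regions numbered 26 with a gap of 500 bp (14.5% of all regions) and 24 at the stricter q (13.7%). At equal list length they numbered 18 (10.6%), each in place of 40 (14.2%). Against 2 control-only regions (4.39% of all regions), 1 was found with the 500 bp gap (4.38%). At equal list length there were 4 (7.7%), and without flanks 1 (4.39%).

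With each library left out in turn, genes higher in H3K4me1 ranged from 4 to 7, beside 43.6% to 73.9% of all genes. Genes lower ranged from 1 to 3, beside 12.2% to 41.0%. In H3K27ac they ranged from 4 to 6 higher, beside 33.4% to 73.9%, and from 0 to 1 lower, beside 7.55% to 25.8%. In MLL4 they ranged from 0 to 3 higher, beside 4.04% to 52.3%, and from 1 to 3 lower, beside 18.3% to 62.0%. Genes with a tag site ranged from 1 to 5, beside at most 27.6% of all genes. FOXD2-only regions ranged from 42 to 74, beside 16.5% to 30.7% of all regions. Control-only regions ranged from 3 to 7, beside 6.44% to 11.4%.

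The replicate numbers are shared by the groups but no label ties same-numbered libraries together, and 2 pairs per mark are too few to show that they pair. Under the replicate block, 4 genes were higher (48.1% of all genes) and 1 lower (17.4%) for H3K4me1. For H3K27ac the counts were 3 (31.0%) and 0 (5.16%), and for MLL4 0 (3.69%) and 1 (26.8%). The counts were those found without the block, while each share of all genes was larger than without it.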
